A study of Mus musculus with 6 samples.

Results

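The genes described here encode the nuclear subunits of the mitochondrial respiratory chain and of ATP synthase. They were taken from the count matrix by symbol, as Ndufa, Ndufb, Ndufc, Ndufs or Ndufv followed by a number, Sdha to Sdhd, and genes beginning with Uqcr, Cox4 to Cox8 or Atp5, and symbols holding -ps, which mark pseudogenes, were dropped. This gave 84 of the 48397 genes in the matrix, with 37 for complex I, 4 for complex II, 8 for complex III, 18 for complex IV and 17 for ATP synthase, also called complex V. RNA of stage 0 invariant natural killer T (iNKT) cells, the earliest thymic stage after selection on CD1d, was sequenced from wild-type BALB/c mice and from SKG mice, with 3 libraries per genotype. SKG mice carry a hypomorphic mutation of Zap70, the kinase that relays the signal of the T cell receptor, on the BALB/c background, and no treatment is named for either strain. Each library came from about 1000 sorted cells of 3 pooled thymi from mice of 8 to 10 weeks. Sorted cells bound the PBS57-CD1d tetramer, expressed CD24 and CD69, lacked CD44 and CD8 and had low or no CD4.

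The respiratory chain passes electrons from NADH through complex I, or from succinate through complex II, to coenzyme Q, then through complex III and cytochrome c to complex IV, which reduces oxygen. Complexes I, III and IV pump protons across the inner mitochondrial membrane, and ATP synthase uses the returning protons to make ATP. A small part of these subunits is encoded by mitochondrial DNA, while all others are nuclear genes whose products are imported, and thymocytes draw on this pathway when they proliferate and mature. Symbols do not follow function exactly. Ndufa4, counted here with complex I by its symbol, is now placed in complex IV, and Atp5s and Atp5sl are no subunits of ATP synthase. Ndufab1 and Usmg5, which belong to complexes I and V, and Cyc1, cytochrome c1 of complex III, do not match the symbol rule and were not included.

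Counts per library ranged from 37176544 to 43115544, and the subunits took 1.27, 1.04 and 1.17% of the reads of the BALB/c libraries and 0.939, 0.921 and 1.09% of those of SKG. The 8 markers of stage 0 iNKT cells, among them Cd24a, Cd69 and Egr2, were all present, with summed levels of 5452 to 7305 CPM, that is counts scaled to the normalized library size, in BALB/c and 4858 to 5906 CPM in SKG. Markers of double-positive thymocytes summed to 71.3 to 467 CPM in BALB/c and 88.6 to 242 CPM in SKG, markers of B cells to 8.73 to 94.9 and 7.40 to 45 CPM, and markers of myeloid cells to 4.69 to 64.8 and 6.13 to 146 CPM. Erythroid markers summed to 0.0270 to 69.7 CPM in BALB/c and 0.0515 to 0.691 CPM in SKG, and markers of thymic epithelial cells to 28.1 to 41.4 and 10.0 to 86.9 CPM. The defining markers Cd14, Alas2, Krt5 and Psmb11 were at 0 in every library. Of the stage 0 markers, Cd69, an activation marker, and Egr2, a transcription factor induced by T cell receptor signals, lay lower in every SKG library. Cd69 was at 312, 391 and 354 CPM in BALB/c and 152, 179 and 249.5 CPM in SKG, with a log2 fold change of -0.87 ± 0.22 (SE, unadjusted p = 0.00640 and adjusted p = 0.686, edgeR quasi-likelihood). Egr2 was at 1547, 1097 and 1408 CPM in BALB/c and 883, 956 and 493 CPM in SKG, with -0.80 ± 0.27 (unadjusted p = 0.0243 and adjusted p = 0.834, edgeR quasi-likelihood). Cd24a went the other way, at 52.4, 7.31 and 15.6 CPM in BALB/c and 31.9, 88.6 and 90.7 CPM in SKG. Its libraries overlapped, with a log2 fold change of 1.49 ± 0.80 (unadjusted p = 0.108 and adjusted p = 0.959, edgeR quasi-likelihood). Log2 fold changes were 0.089 for Cd3e and 0.079 for Trbc2, and -0.27, -0.20 and -0.34 for Cd3d, Trbc1 and Zbtb16, all with overlapping libraries. Of the markers of other cells, Cd8a, Rag1 and Ighm were highest in BALB/c replicate 1, at 121, 34.9 and 88.1 CPM, while Cd4, Arpp21 and Cd79b were not. The part of the stage 0 markers in the subunit values, and that of other cells, was not tested. Zap70 was present at 498, 472 and 374 CPM in BALB/c and 322, 338 and 409 CPM in SKG, and since the SKG allele is a point mutation, this level does not check the genotype.

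No respiratory subunit passed the threshold between the genotypes, but most lay lower in SKG. Of the 84 genes, 77 had enough reads for the test (36 of complex I, 4 of complex II, 8 of complex III, 12 of complex IV and 17 of complex V). With edgeR's quasi-likelihood test, a call needed a Benjamini-Hochberg adjusted p under 0.1 and levels that differed by at least 1.5-fold. On these terms 0 of 77 subunits were called by edgeR and by limma-voom, and the edgeR background was 0 of 12312 genes, or 0% called. DESeq2 called 1 subunit, Ndufa6, where with shrunken fold changes it called 231 of 13862 genes, or 1.67%. The lowest adjusted p of a subunit was 0.830 (edgeR quasi-likelihood, Benjamini-Hochberg) and that of any gene 0.212. At an unadjusted p under 0.05, 3 subunits were lower in SKG and none higher, where 671 genes in all passed, or 5.45%. The count fell to 0 without BALB/c replicate 1 or SKG replicate 1, where 4.66 and 5.77% of all genes passed, and was 7 without BALB/c replicate 2 and 9 without SKG replicate 3, where 4.70 and 5.79% passed. Without BALB/c replicate 3 it was 3, with 2 of them higher in SKG, where 7.16% of all genes passed.

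The fitted fold change was lower in SKG for 65 subunits and higher for 12, against 51% of all genes lower in SKG. The median log2 fold change, SKG over BALB/c, was -0.28 over the 77 subunits and -0.016 over all genes tested. Among genes at a mean of 10 CPM or more the medians were -0.27 for 71 subunits and 0.0050 for 8378 genes. For 13 subunits all SKG libraries lay below all BALB/c libraries, and for 1, Ndufb8, all lay above, where 7.12% of all genes were lower and 6.77% higher without overlap. These 14 are 18.2% of the subunits, against 13.9% of all genes without overlap in either direction. With fewer libraries all genes overlap less readily. The subunits without overlap were 39 (50.0%) without BALB/c replicate 2 and 35 (44.9%) without SKG replicate 3, against 22.4 and 25.8% of all genes. For these subunits, BALB/c replicate 2 was often the lowest of its genotype and SKG replicate 3 the highest, as described further on. Without SKG replicate 1 the count was 23 (29.5%), against 23.6%. Without BALB/c replicate 1, SKG replicate 2 or BALB/c replicate 3 it was 15 (19.5%), 17 (21.8%) or 20 (25.97%), against 20.7, 22.04 and 24.4%. These last shares lay close to those of all genes. In this bulk RNA, fewer cells of a type and less RNA per cell cannot be told apart.

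**Figure D1:**
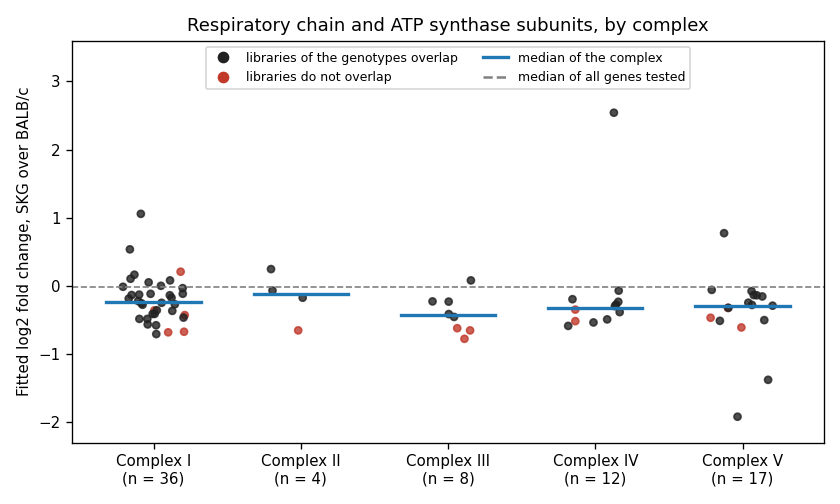
Fitted log2 fold change (y axis, SKG over BALB/c) of the 77 tested subunits, 1 point each, by complex (x axis). Blue bars are the medians of the complexes, from -0.12 in complex II to -0.44 in complex III, the dashed line is the median of all genes tested, and red points are the 14 subunits whose libraries do not overlap between genotypes.

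The 3 subunits at an unadjusted p under 0.05 were Sdhd, Atp5h and Atp5g3. Sdhd, a membrane anchor of succinate dehydrogenase that takes part in binding coenzyme Q, lies on chromosome 9, 50596357 to 50603812 (GRCm38, minus strand). Atp5h, the d subunit in the peripheral stalk of ATP synthase, lies on chromosome 11, 115415689 to 115419962, minus strand. Atp5g3 encodes the c subunit of the rotor ring and lies on chromosome 2, 73908447 to 73911326, minus strand.

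Binding sequences of regulators of respiratory genes were looked for in the 250 bases before and 50 bases after the RefSeq start (GRCm38.p6) of 66 tested subunits that matched the table. The letters searched, on both strands, were GCGCA followed by any base and GCGC for NRF1, CCGGAAG for GABPA, AANATGGC for YY1 and TCAAGGTCA for ESRRA, and no match of one overlaps another in the sites shown. The sites below were chosen because they lie at the 3 subunits with the lowest p and at Cox6b1, which followed, with Sdha shown as a subunit of complex II that differed little. Each is written 5′ to 3′ on the strand of the gene, with the match in capitals.
Sdhd NRF1, chr9:50603909-50603938: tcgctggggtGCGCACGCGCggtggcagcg
Sdhd GABPA, chr9:50603879-50603905: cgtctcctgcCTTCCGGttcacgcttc
Sdhd ESRRA, chr9:50603800-50603823: ggttgtagagTGACCTTGAgccct
Atp5h NRF1, chr11:115420041-115420070: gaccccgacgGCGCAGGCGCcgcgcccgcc
Atp5h GABPA, chr11:115419941-115419967: aaggagagaaCTTCCGGcaactctctt
Atp5g3 NRF1, chr2:73911295-73911324: gagccgcaccGCGCTTGCGCgcccagcccc
Atp5g3 ESRRA, chr2:73911360-73911388: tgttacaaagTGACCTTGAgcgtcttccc
Cox6b1 GABPA, chr7:30626126-30626152: cctctcgcagCTTCCGGccagtcggaa
Sdha NRF1, chr13:74350319-74350348: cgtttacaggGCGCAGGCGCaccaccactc
Sdha NRF1, chr13:74350276-74350305: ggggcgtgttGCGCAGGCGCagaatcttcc
Sdha NRF1, chr13:74350231-74350260: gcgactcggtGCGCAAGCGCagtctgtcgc
All 5 genes lie on the minus strand. The NRF1 and GABPA matches of Sdhd end 69 and 39 bases before its RefSeq start, those of Atp5h 131 and 31 bases before, and the ESRRA match of Sdhd and the NRF1 match of Atp5g3 begin 36 and 12 bases after it. The RefSeq start of Sdhd lies upstream of the start in the gene coordinates given above, and that of Atp5h downstream.

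A gene was counted where any of its windows held the letters. NRF1 letters were present in 17 of the 66 subunits (25.8%), against 5.19% of all 27025 genes in the table and 12.9% of tested genes. YY1 letters were in 18 subunits (27.3%), against 6.96% of all and 11.2% of tested genes. GABPA letters were in 16 subunits (24.2%, against 9.93% of all and 22.2% of tested genes), and ESRRA letters in 2 (3.03%, against 0.466% and 0.369%). The median log2 fold change was -0.47 in subunits with NRF1 letters and -0.25 in those without, -0.47 and -0.27 for GABPA, and -0.17 and -0.36 for YY1. Transcript length, which the fold changes followed as described further on, was not taken into account in these medians. A link between the letters and the fold changes was not tested. Sdha, with 3 NRF1 matches, had a log2 fold change of -0.069, close to 0. These are descriptions of the windows, and binding was not measured here.

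Complex I, the NADH dehydrogenase, had 28 of 36 tested subunits lower in SKG and 8 higher, with a median log2 fold change of -0.24. With length offsets, an edgeR fit that takes out the trend with transcript length, 19 were lower and the median was -0.018. Its 7 core nuclear subunits, which hold the flavin and the iron-sulfur clusters and carry out catalysis, had 4 lower and 3 higher, and the 29 tested accessory subunits had 24 lower with a median of -0.28 (17 lower and -0.049 with length offsets). Ndufv1, the subunit that binds NADH, was at 211, 189 and 199.7 CPM in BALB/c and 211, 171 and 218 CPM in SKG. The genotypes overlapped throughout, with a log2 fold change of 0.00052 ± 0.16 (SE), whose sign turned under several settings. Ndufs1, Ndufv2 and Ndufs8, which carry electrons or line their path to coenzyme Q, had log2 fold changes of -0.12, -0.19 and -0.17. Ndufs3 and Ndufs7, core subunits of the peripheral arm, were at 0.051 and 0.16, and Ndufs3 was at -0.0031 with upper quartile factors.

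Ndufa7, an accessory subunit of complex I with the lowest p among those lower in SKG, was at 55.8, 53.1 and 56.4 CPM in BALB/c and 37.5, 40.2 and 25.9 CPM in SKG. All SKG libraries lay below all BALB/c libraries, and the log2 fold change was -0.67 ± 0.32 (unadjusted p = 0.0741 and adjusted p = 0.952 with edgeR's quasi-likelihood test). Ndufa6, an accessory subunit at the joint of the membrane and peripheral arms, was at 38.1, 29.1 and 33.4 CPM in BALB/c and 19.2, 21.4 and 22.1 CPM in SKG, again with no overlap. In edgeR the log2 fold change was -0.68 ± 0.41 and the quasi-likelihood test gave an adjusted p of 0.972. Ndufa6 was the 1 subunit called by DESeq2 with shrunken fold changes (-0.65, adjusted p = 0.0948). In this fit DESeq2 called 231 of 13862 genes, or 1.67%.

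Ndufs4, which helps to hold the NADH-oxidizing module in place, was at 86.2, 80.2 and 77.7 CPM in BALB/c and 58.0, 45.8 and 77.6 CPM in SKG, with the lowest BALB/c library just above the highest of SKG. Ndufb3, of the membrane arm, was at 32.5, 32.6 and 37.3 CPM in BALB/c and 27.8, 22.7 and 29.2 CPM in SKG, without overlap. Ndufb8, also of the membrane arm, was the subunit with all SKG libraries above all of BALB/c, at 44.7, 47.6 and 50.6 CPM in BALB/c and 51.3, 56.5 and 57.1 CPM in SKG and a log2 fold change of 0.21 ± 0.26. These 3 differences were small, with unadjusted edgeR p-values of 0.163, 0.374 and 0.458. Ndufa3, of the membrane arm, had the lowest p among those higher in SKG (0.280), at 25.5, 15.4 and 33.3 CPM in BALB/c and 34.9, 30.0 and 42.7 CPM in SKG, and its genotypes overlapped.

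Complex II, succinate dehydrogenase, is the 1 complex made of nuclear subunits alone and also a step of the citric acid cycle. Of its 4 subunits, 3 were lower in SKG, also with length offsets, and the median was -0.12 (-0.073 with length offsets). Sdhd was at 243, 181 and 164 CPM in BALB/c and 113, 139 and 122 CPM in SKG. Every SKG library lay below every BALB/c library, with means of 196 ± 41.6 against 125 ± 12.8 CPM (SD, 3 libraries per genotype). The log2 fold change was -0.65 ± 0.21, with an unadjusted p of 0.0167 and an adjusted p of 0.830 (edgeR quasi-likelihood), and leaving out single libraries gave -0.76 to -0.46. The other subunits of the complex did not share this. Sdha, which holds the flavin, was at 272, 331 and 297 CPM in BALB/c and 251, 319.5 and 287 CPM in SKG, Sdhb, which holds the iron-sulfur clusters, at 365, 338 and 303 CPM in BALB/c and 273, 236 and 382 CPM in SKG, and Sdhc, the other membrane anchor, at 115, 105 and 107 CPM in BALB/c and 103, 134 and 151 CPM in SKG. Their genotypes overlapped, with log2 fold changes of -0.069, -0.17 and 0.25.

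**Figure D2:**
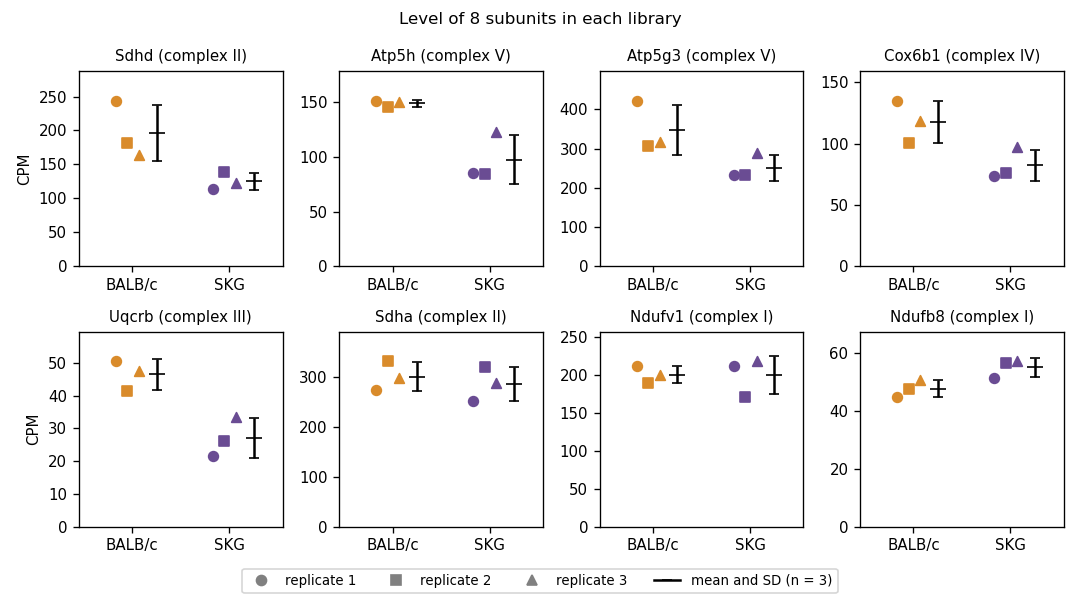
Level (y axis, CPM from 0, a scale per panel) of 8 subunits in each library, by genotype (x axis), with the replicate as the marker and the mean ± SD of 3 libraries in black. Sdhd, Atp5h, Atp5g3, Cox6b1 and Uqcrb lie lower in every SKG library and Ndufb8 higher, while Sdha and Ndufv1 overlap.

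Complex III, which hands electrons from coenzyme Q to cytochrome c, had the lowest median, -0.44, with 7 of 8 subunits lower in SKG (7 of 8 and -0.19 with length offsets). Cyc1, the catalytic cytochrome c1 that the symbol rule misses, was at 238, 274 and 255 CPM in BALB/c and 219.7, 219.7 and 330.2 CPM in SKG, with overlapping libraries and a log2 fold change of 0.0046 ± 0.20 whose sign turned under several settings. Uqcrb, a small subunit by the coenzyme Q site, was at 50.5, 41.4 and 47.6 CPM in BALB/c and 21.5, 26.3 and 33.6 CPM in SKG. No library overlapped, and the log2 fold change of -0.78 ± 0.36 was the lowest of the subunits without overlap, with unadjusted p = 0.0687 and adjusted p = 0.952 (edgeR quasi-likelihood). Uqcrh, the hinge protein that helps cytochrome c1 meet cytochrome c, was at 64.7, 49.0 and 62.7 CPM in BALB/c and 44.3, 35.3 and 35.1 CPM in SKG. Uqcr10, a small membrane subunit, was at 69.7, 48.6 and 62.7 CPM in BALB/c and 40.1, 29.2 and 45.7 CPM in SKG. Both were without overlap, at log2 fold changes of -0.62 ± 0.30 and -0.65 ± 0.33. The larger subunits lay closer together. The Rieske iron-sulfur protein Uqcrfs1 had a log2 fold change of -0.41 ± 0.27, and the core proteins Uqcrc1 and Uqcrc2 of -0.23 ± 0.21 and 0.08 ± 0.21, with overlapping libraries in each case. BALB/c replicate 1 stood high for Uqcrc1, which was at 936, 578 and 609 CPM in BALB/c and 661, 591 and 562 CPM in SKG, and without that library its log2 fold change was 0.031.

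Complex IV, cytochrome c oxidase, had 11 of 12 tested subunits lower in SKG, with a median of -0.32 (8 of 12 and -0.050 with length offsets). Cox6b1, which faces the intermembrane space, was at 135, 100.02 and 118 CPM in BALB/c and 73.7, 75.9 and 96.8 CPM in SKG, with no overlap and a log2 fold change of -0.52 ± 0.22. Its unadjusted p was 0.0539 and its adjusted p 0.932 (edgeR quasi-likelihood). Cox5a, a matrix subunit, was at 83.8, 73.7 and 71.8 CPM in BALB/c and 63.3, 50.7 and 66.1 CPM in SKG, also with no overlap, at -0.35 ± 0.24. Cox8a, Cox6a1 and Cox4i1, further nuclear subunits around the catalytic core, had log2 fold changes of -0.54 ± 0.25, -0.49 ± 0.25 and -0.30 ± 0.18. In each of these, SKG replicate 3 overlapped the BALB/c libraries, as for Cox8a at 146, 117 and 141 CPM in BALB/c and 70.7, 86.3 and 121 CPM in SKG.

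Several complex IV subunits exist as tissue forms, and stage 0 iNKT cells used the forms found in most tissues. Cox4i1, Cox6a1, Cox8a and Ndufa4 took 100% of the reads of their families, and Cox4i2, Cox6a2, Cox8b, Cox8c and Ndufa4l2, which are known from lung, muscle, testis or hypoxic cells, had 0 reads in every library, which allows up to 0.0830 CPM in the smallest library (3 counts, counting error only). Cox7b2, a testis form, had 3 reads, all in SKG replicate 1. Cox7a1, the form of heart and skeletal muscle, had 11, 0 and 13 reads across BALB/c and 0, 0 and 0 across SKG. These were the 7 genes that were not tested. Cox6b2, the testis form of Cox6b1, had 1, 1 and 57 reads across BALB/c and 130, 173 and 1 across SKG, so that libraries of both genotypes were near 0 and its log2 fold change of 2.54 ± 2.1 rests on 1 library of BALB/c and 2 of SKG. Cox7a2 and Cox7a2l, the latter linked to the joining of complexes III and IV, shared the Cox7a reads, with 27.3 to 49.4% for Cox7a2 and 50.4 to 72.7% for Cox7a2l. Cox7a2 had a log2 fold change of -0.59 ± 0.33, and Cox7a2l, at 174, 85.7 and 71.7 CPM in BALB/c and 61.1, 89.1 and 104 CPM in SKG, one of -0.39 ± 0.40 that was 0.11 without BALB/c replicate 1. Cox7b, a small subunit with a near-silent paralogue, was at -0.28 ± 0.40.

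ATP synthase had 16 of 17 genes lower in SKG and a median of -0.29 (11 of 17 and -0.10 with length offsets). Atp5h was at 151, 146 and 150.05 CPM in BALB/c and 85.1, 84.5 and 123 CPM in SKG. The BALB/c libraries lay close together and above all of SKG, with means of 149 ± 2.96 against 97.6 ± 22.2 CPM (SD, 3 libraries per genotype), and the log2 fold change was -0.61 ± 0.21, with unadjusted p = 0.0252 and adjusted p = 0.834 (edgeR quasi-likelihood). Atp5g3 was at 421, 306 and 316 CPM in BALB/c and 232, 232 and 289.6 CPM in SKG. It did not overlap either, and its log2 fold change was -0.47 ± 0.19, with unadjusted p = 0.0429 and adjusted p = 0.894 (edgeR quasi-likelihood). Atp5g1, Atp5g2 and Atp5g3 encode the same mature c subunit, and Atp5g3 took 95.6 to 98.1% of their reads, with 1.51 to 3.85% for Atp5g1 and 0.215 to 1.33% for Atp5g2. Atp5g2, at 5.87, 0.971 and 2.61 CPM in BALB/c and 0.521, 0.669 and 1.30 CPM in SKG, had a log2 fold change of -1.92 ± 1.06 with overlapping libraries, and Atp5g1 one of -0.51 ± 0.76.

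The 5 genes of F1, the catalytic head that makes ATP with its central stalk, were all lower in SKG with a median of -0.16. The 10 of the membrane part and the peripheral stalk were all lower with a median of -0.40. With length offsets the medians were -0.10 and -0.10, with 3 of 5 and 7 of 10 lower. Per kilobase of coding sequence, the highest subunits were Atp5b with 1305, Atp5g3 with 708, Atp5a1 with 683, Atp5d with 551 and Cox8a with 548 CPM per kilobase, as means of the 6 libraries. Reads in untranslated regions were counted too, so these levels compare genes only roughly. Atp5b, the catalytic β subunit, was at 2296, 2285 and 1967 CPM in BALB/c and 1767, 1976 and 2134 CPM in SKG, and Atp5a1, its partner α, at 1151, 1288 and 1118 CPM in BALB/c and 1010.0, 1086 and 1141 CPM in SKG. Both overlapped, with log2 fold changes of -0.16 ± 0.13 and -0.14 ± 0.12. Atp5d, the δ subunit of the central stalk, had -0.078 ± 0.18, and Atp5c1, the γ subunit of the shaft that turns within the head, had -0.32 ± 0.20 with no overlap, at 452, 286 and 309 CPM in BALB/c and 279.96, 273 and 283 CPM in SKG. BALB/c replicate 1 stood high for Atp5c1, and without it the log2 fold change was -0.087. Atp5sl, now known as Dmac2 and linked to complex I assembly, was the 1 gene of this group higher in SKG, at 33.7, 26.2 and 79.5 CPM in BALB/c and 64.1, 91.9 and 82.3 CPM in SKG and a log2 fold change of 0.77 ± 0.47.

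Summed over all 84 genes, the level was 12751, 10546 and 11207 CPM in BALB/c and 9391, 9370 and 11211 CPM in SKG. The mean was 13.1% lower in SKG, at 9991 ± 1057 against 11502 ± 1131 CPM (SD, 3 libraries per genotype), but SKG replicate 3 lay above BALB/c replicates 2 and 3. Without Atp5a1 and Atp5b, which supply much of this sum, the mean was 14.5% lower. By complex, the SKG mean was lower by 10.4% for complex I, 11.0% for complex II, 16.5% for complex III, 22.4% for complex IV and 11.9% for complex V, and the genotypes overlapped in each.

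**Figure D3:**
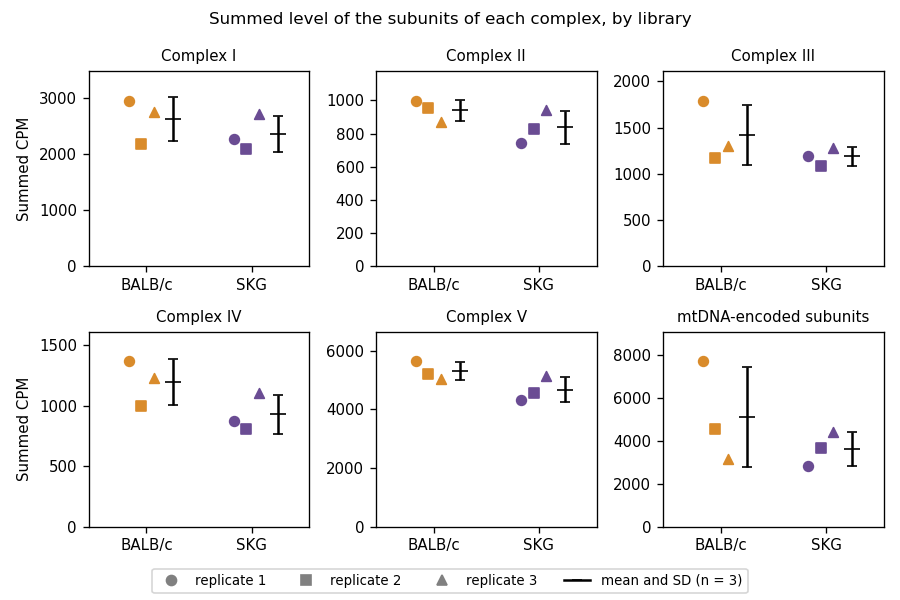
Summed level (y axis, CPM from 0) of the nuclear subunits of each complex and of the 13 subunits encoded by mitochondrial DNA, in each library by genotype (x axis), with the mean ± SD of 3 libraries in black. The genotypes overlap in every panel, with BALB/c replicate 2 low and SKG replicate 3 high in complexes I and IV.

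The overlap followed certain libraries. BALB/c replicate 2 was the lowest of its genotype for 60 of the 77 tested subunits, and SKG replicate 3 the highest of its genotype for 56. The median log2 deviation of the subunits from the mean of the 6 libraries was 0.32, -0.11 and 0.28 in BALB/c and -0.18, -0.32 and 0.11 in SKG. Leaving out BALB/c replicate 2 or SKG replicate 3 moved the median log2 fold change of the subunits to -0.42 or -0.41, and leaving out BALB/c replicate 1 to -0.17. Within a genotype, the subunits at 10 CPM or more had median coefficients of variation of 19.0% in BALB/c and 19.7% in SKG, below the 28.7 and 28.9% of all such genes.

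Transcript length moved with these differences. The tested subunits have short transcripts, with a median of 861 nt against 2959 nt for the other 10005 genes with a length. Among other genes, those of 700 nt or less had a median log2 fold change of -0.33 (189 genes) and those over 2500 nt of 0.10 (6097 genes). In each length class the median of the subunits lay below that of other genes, at -0.50 and -0.35 up to 500 nt, -0.45 and -0.33 from 500 to 700 nt, -0.27 and -0.23 from 700 to 1000 nt, -0.25 and -0.14 from 1000 to 1500 nt, -0.14 and -0.049 from 1500 to 2500 nt, and -0.069 and 0.10 above. The classes up to 500 nt and over 2500 nt hold 5 subunits each. Over 700 nt, 83.3% of 48 subunits were lower in SKG with a median of -0.19, against 49.0% of other genes with a median of 0.012. These 2 sets differ in length, since 5 of the subunits and 6097 of the 9816 other genes are over 2500 nt. With length offsets their medians were -0.051 and -1.1e-05. From 1000 to 1500 nt, 91.7% of subunits were lower, against 63.0%. Leaving the ribosomal protein genes out of the other genes gave -0.23 up to 500 nt and -0.32 from 500 to 700 nt. Across genes, which are not independent replicates and share libraries, the Spearman correlation of the log2 fold change with transcript length was 0.44 over the 77 subunits and 0.15 over the other genes, and that with GC content was 0.025 and 0.022.

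**Figure D4:**
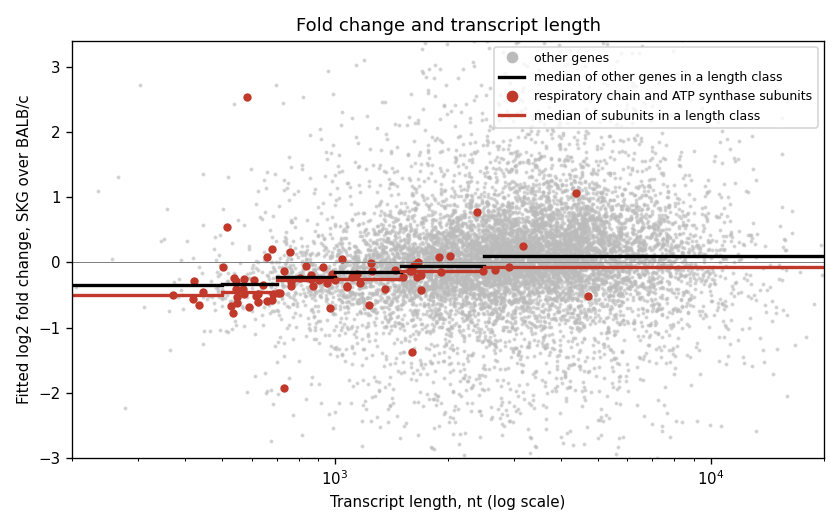
Fitted log2 fold change (y axis, SKG over BALB/c) against transcript length (x axis, nt, log scale) of the 77 subunits in red and the other genes in grey, with bars for the medians of the length classes. Both sets of bars rise with length, from -0.50 to -0.069 for subunits and from -0.35 to 0.10 for other genes, and points outside the axes are not drawn.

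The same libraries stood apart for other short transcripts. Other genes of 700 nt or less deviated by 0.33, -0.070 and 0.36 in BALB/c and -0.20, -0.33 and 0.064 in SKG, close to the subunits, while genes over 2500 nt deviated by -0.097, 0.080 and 0.078 in BALB/c and 0.20, 0.18 and -0.027 in SKG. With an offset per library that follows transcript length, set on the genes that are no subunits and added after seeing the data, the median log2 fold change of the subunits was -0.067, with 48 of 77 lower in SKG, where 50.1% of all genes with a length were lower. At an unadjusted p under 0.05, 0 subunits passed in this fit, against 5.21% of genes. Sdhd was at a log2 fold change of -0.48 (unadjusted p = 0.0538, edgeR quasi-likelihood), Atp5h was at -0.32 and Atp5g3 at -0.18. Ndufs7 and Ndufa3, higher in SKG, were at 0.43 and 0.92. What sets the length dependence of the libraries was not tested.

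**Figure D5:**
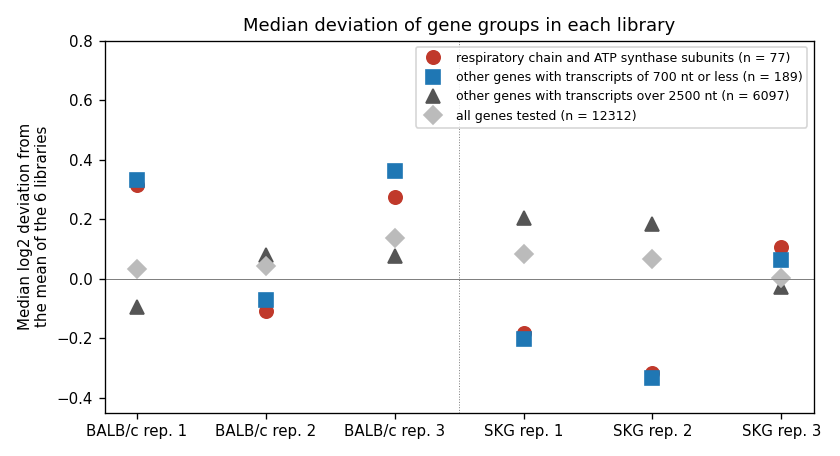
Median log2 deviation (y axis) of gene groups from the mean of the 6 libraries, in each library (x axis). The subunits in red and other genes with transcripts of 700 nt or less in blue lie close to each other in every library, and genes over 2500 nt in dark grey lie on the other side of 0 in all libraries but BALB/c replicate 3.

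The subunits encoded by mitochondrial DNA, the partners of the nuclear ones in complexes I, III, IV and V, summed to 7710, 4535 and 3159 CPM in BALB/c and 2814, 3660 and 4405 CPM in SKG. BALB/c replicate 1 stood high, and the genotypes overlapped. The genes entered this sum very unevenly. In BALB/c, mt-Co1 and mt-Cytb had means of 1611 and 1634 CPM, but mt-Co2, mt-Co3 and mt-Atp6 of 7.57, 11.7 and 13.7 CPM. mt-Nd3 and mt-Nd4l were at 0.122 and 0.0969 CPM. In SKG these genes were as uneven, with mt-Co1 at 1248 and mt-Co2 at 5.37 CPM. Complex V and most of complex IV were thus barely measured here, and the cause was not tested. All 11 tested genes of 13 were lower in SKG, with a median of -0.74 and 0 without overlap, where 7.12% of all genes were lower without overlap. In edgeR 2 passed an unadjusted p of 0.05, where 5.45% of all genes did. With length offsets 9 of 11 were lower, with a median of -0.42 and 1 at an unadjusted p under 0.05, against 5.21% of genes. The 2 were mt-Nd5, at 608, 421 and 256 CPM in BALB/c and 197, 227 and 282 CPM in SKG (-0.86 ± 0.32), and mt-Nd6, at 116, 92.5 and 45.9 CPM in BALB/c and 29.5, 43.8 and 48.0 CPM in SKG (-1.07 ± 0.41), both membrane subunits of complex I, followed by mt-Nd4 at -0.88 ± 0.45. These genes come from shared polycistronic transcripts and share the high library, so they are not separate observations, and counts without strand cannot separate mt-Nd6 from RNA of the opposite strand.

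Transcripts of assembly factors also lay mostly lower in SKG, where 51% of all genes did. Of 14 tested assembly factors of complex I, 10 were lower in SKG with a median of -0.20 (10 and -0.24 with length offsets) and 0 at an unadjusted p under 0.05, and the lowest p belonged to Nubpl, Foxred1 and Ndufaf4 (-1.17 ± 0.73, -0.66 ± 0.45 and -0.29 ± 0.26). Of 29 tested assembly factors of complexes II to IV, 21 were lower with a median of -0.30 (17 and -0.079 with length offsets) and 5 without overlap, or 17.2% against 7.12% of all genes. Cox18, which inserts Cox2 into the membrane, was at 133, 88.0 and 54.4 CPM in BALB/c and 46.8, 52.8 and 46.3 CPM in SKG, with no overlap, a log2 fold change of -0.92 ± 0.36 and an unadjusted edgeR p of 0.0411. Sdhaf2, which adds the flavin to Sdha, was at 0.49 ± 0.30, and the copper carrier Sco1 at -1.77 ± 1.46, with 47.7, 23.4 and 21.5 CPM in BALB/c and 14.7, 12.3 and 0.0553 CPM in SKG. Of the 4 factors of ATP synthase, 3 were lower (2 with length offsets), with Tmem70, which helps to assemble the c ring, at 63.6, 38.0 and 60.2 CPM in BALB/c and 36.5, 32.4 and 27.8 CPM in SKG, without overlap, and Atpaf1 and Atpaf2 at -0.50 ± 0.58 and 0.22 ± 0.26.

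Of 16 tested electron carriers and enzymes of coenzyme Q synthesis, 11 were lower with a median of -0.097 (8 and -0.0063 with length offsets). In 4, or 25.0% against 7.12% of all genes, SKG lay lower without overlap. At an unadjusted p under 0.05 in edgeR 0 passed, where 5.45% of all genes did. Cytochrome c, encoded by Cycs, was at 100.1, 65.2 and 72.2 CPM in BALB/c and 60.7, 55.8 and 57.5 CPM in SKG, below in every SKG library, with a log2 fold change of -0.45 ± 0.26. Coq7, a hydroxylase of coenzyme Q synthesis, was at -0.90 ± 0.50 and Etfdh, which feeds electrons from fatty acid oxidation to coenzyme Q, at -0.56 ± 0.32. All 6 tested carriers of nucleotides and phosphate were lower, with a median of -0.24 (5 and -0.17 with length offsets). At an unadjusted p under 0.05 in edgeR 2 passed, where 5.45% of all genes did. The same number, or 33.3% against 7.12% of all genes, lay lower in SKG without overlap. The adenine nucleotide carrier Slc25a5 was at 1783, 1455 and 1330.0 CPM in BALB/c and 1278, 1170.2 and 1102 CPM in SKG (-0.36 ± 0.15) and the outer membrane channel Vdac3 at 141, 101 and 99.0 CPM in BALB/c and 57.6, 72.9 and 80.5 CPM in SKG (-0.69 ± 0.25), each without overlap, and Vdac2 was at -0.20 ± 0.17. The transcriptional regulators of respiratory genes did not lie lower as a list, with 9 of 14 higher in SKG and a median of 0.12 (8 and 0.077 with length offsets). Tfb1m, a mitochondrial rRNA methyltransferase, was at 31.4, 25.7 and 8.52 CPM in BALB/c and 2.33, 3.6 and 8.30 CPM in SKG (-2.20 ± 0.88), without overlap and with an unadjusted edgeR p of 0.0420, and Yy1 and Pprc1 were at 0.52 ± 0.33 and 0.45 ± 0.31. Nrf1, the factor of the first letters searched, was at 143, 116 and 119 CPM in BALB/c and 129.95, 153 and 96.7 CPM in SKG, with a log2 fold change of 0.007 ± 0.23 whose sign turned under several settings, and it was named after its values were seen. No gene of these lists was called by edgeR at the thresholds given.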

How the data were processed

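RNA was made into libraries from polyA RNA, and the labels and the study's methods name different kits. The authors aligned single-end reads of 50 nt to GRCm38 with HISAT2 2.1.0. Exon reads were counted with featureCounts of Subread 1.4.4 and Ensembl 85, without strand and at a mapping quality of at least 10. Reads that fit near-identical genes equally well can fall below this quality, so such genes can lose reads. Overlapping genes on opposite strands cannot be told apart by strand. The deposited counts are whole numbers, not normalized. A second deposited table holds the authors' own comparison and was not used.

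All 6 libraries were fitted without covariates in R 4.3.3 with edgeR 4.0.16 (filterByExpr by genotype, TMM factors, quasi-likelihood F test), with p-values adjusted by Benjamini-Hochberg over 12312 genes. CPM are counts scaled to the TMM-adjusted library size. Standard errors were taken from the fold change and the F statistic. DESeq2 1.42.0 and limma-voom 3.58.1, other factors and filters, replicate blocks and each library left out were alternatives. The fits were checked on simulated data. The DESeq2 share counts genes with an adjusted p. Lengths came from GENCODE release M21 by symbol, with 1 transcript per gene. The length fit used a lowess curve per library over tested genes that are no subunits. Promoter windows came from RefSeq (GRCm38.p6).

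Named genes are those at an unadjusted p under 0.05, the lowest p in each direction per complex, core and anchor subunits, paralogues, the 5 highest per coding kilobase, genes not tested, and the 3 lowest p of each other list. Ndufa6, Ndufs4, Ndufb3, Ndufb8, Uqcrh, Uqcr10 and Atp5c1 were added after their values were seen, since their libraries did not overlap or DESeq2 called them, and so were Nrf1, Cyc1, Cd69 and Egr2. Values of other cell type markers were also given after they were seen, and these markers are not among the 66 named genes counted below. The members and lists were chosen with earlier results of these data known. Ndufaf8, Coq8a and Coq8b of the lists were not analysed here, and not every gene of this rule is reported here.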

Additional observations from a re-analysis of the deposited data

How the results depend on the processing

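The number of libraries, 3 per genotype, limited the precision. The median log2 fold change of the subunits stayed negative in every alternative, from -0.17 to -0.42 over single libraries left out and at -0.067 with length offsets and -0.16 with coding length offsets. With RLE factors 64 of 77 subunits were lower in SKG, with upper quartile factors 67 and with library size alone 66.

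Genes called, 0 with edgeR, were 2 without a filter, 1 with a stricter filter (10 CPM in 3 libraries), 370 with DESeq2 without shrinkage and 231 with shrinkage, 1 among genes with a transcript length, 1 with length offsets and 1 with coding length offsets. Subunits called, 0 with edgeR, were 1 with DESeq2 in either form. Subunits at an unadjusted p under 0.05, 3 with edgeR, were 9 with DESeq2 in either form (5.56% of all genes without and 4.43% with shrinkage). They were 8 with limma-voom (7.86% of all genes), 0 with length offsets (5.21%) and 0 to 9 with single libraries left out (4.66 to 7.16%). Subunits without overlap, 14 with all libraries, were 15 to 39 with single libraries left out, where 20.7 to 25.8% of all genes did not overlap. An FDR of 0.05 or no fold-change threshold left 0 called.

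Libraries of the same title number did not vary together (correlations of deviations from the genotype mean -0.092, -0.0096 and -0.15), nor did those of the same library number (-0.038 and 0.0029). Such deviations sum to 0 within a genotype, which constrains these values, and a shared batch was not tested. With a replicate block of title numbers, 2 subunits were at an unadjusted p under 0.05, where 4.75% of all genes were, and the median was -0.29. With a replicate block of library numbers, 1 was, higher in SKG, and the median was -0.23, with 55 of 77 lower. Library numbers were 2, 3 and 4 in BALB/c and 1, 2 and 3 in SKG. BALB/c replicate 3 and SKG replicate 1 therefore had no partner in this fit and did not enter the comparison of genotypes.

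Of 1250 pairs of one of 66 named genes and an alternative, 48 changed sign, in 14 genes, and the cause was not tested. Ndufv1, at 0.00052, was at -0.048 with upper quartile factors, -0.034 with library size alone, -0.0025 without a filter, -0.0089 with the stricter filter, -0.0099 with limma-voom, -0.0062 and -0.050 with the blocks, -0.030 with coding length offsets and -0.053 to 0.11 with libraries left out. Ndufs3 was at -0.0031 with upper quartile factors, -0.0067 with limma-voom and -0.25 to 0.23 with libraries left out. Nrf1 was at -0.041 with upper quartile factors, -0.025 with library size alone, -0.00090 with the stricter filter, -0.0058 with limma-voom, -0.013 and -0.083 with the blocks, -0.079 with coding length offsets and -0.14 to 0.18 with libraries left out. Cyc1 was at -0.046, -0.033, -0.0053 and -0.027 with the same first 4 settings, -0.021 with the block of title numbers and -0.21 to 0.11 with libraries left out. With length offsets, Ndufa4 was at 0.030, Ndufs8 at 0.0070 and Atp5d at 0.14, and Atp5d at 0.033 with coding length offsets. With the block of library numbers, Cox7b was at 0.058 and Sdha at 0.014. With libraries left out, Ndufs7 ranged from -0.12 to 0.36, Ndufs1 from -0.25 to 0.0091, Sdha from -0.15 to 0.014, Uqcrc1 from -0.36 to 0.031, Uqcrc2 from -0.14 to 0.18, Cox7a2l from -0.62 to 0.11 and Atp5d from -0.21 to 0.034.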
